A study of Mus musculus with 3 samples.

Results

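The 37 genes described here belong to the amino acid arm of the integrated stress response and were chosen by name: 11 act in stress transcription and signalling, 9 in amino acid synthesis and mitochondrial one-carbon and carbon metabolism, 5 in amino acid transport, and 12 encode aminoacyl-tRNA synthetases. All 37 were among the 31053 genes of the count table. Messenger RNA was counted in single cells of pancreatic islets from retired breeder mice, male C57Bl6/J at 7 to 8 months of age. There were 3 libraries, 1 per group. The S961 library came from mice whose pumps released S961, a peptide that blocks the insulin receptor, at a labelled 20 nM per week for 2 weeks. The recovered library, which is titled as an S961 library as well, came from mice whose pumps had been taken out. The control library came from mice with pumps that held no S961. The dose and the 2 weeks are stated once for treated mice and pumps, not for each group. Islets of every group spent a night in culture and were dissociated with TrypLE, an enzyme mixture, before loading on the droplet instrument. How many mice contributed to a library, and how long recovery lasted, are not given in the sources used here.

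The integrated stress response is a pathway in which kinases that sense amino acid shortage, unfolded protein, heme deficiency or double-stranded RNA phosphorylate the translation factor eIF2. General translation then slows, while the messenger RNA of the transcription factor ATF4 is translated more. ATF4 pairs with C/EBP-family proteins on short composite DNA elements and raises genes for amino acid synthesis, uptake and tRNA charging, together with factors such as CHOP (Ddit3) that act in prolonged stress. Beta cells make large amounts of proinsulin and are known for their dependence on this pathway. Because ATF4 is controlled mainly through translation, the level of Atf4 messenger RNA does not report the amount of ATF4 protein, and neither protein nor eIF2 phosphorylation was measured.

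The composite element gives the gene set a visible feature in DNA. Its core, TGATGNAA, was searched on both strands of RefSeq promoters on mouse build GRCm38.p6, taken as 250 bases before to 50 bases after an annotated start. Of the 37 genes, 30 had a promoter in that collection, and 13 of these (43.33%) held at least 1 match, against 1219 of all 27025 genes (4.511%). The matches were in Trib3, Nupr1, Chac1 and Vldlr among stress genes, in Asns, Pycr1 and Pck2 among synthesis genes, in the transporter gene Slc7a11, and in the synthetase genes Gars, Aars, Iars, Yars and Tars. Several of these genes are known as ATF4 targets because such an element was found in them, so the share is a property of how the set is known rather than a separate observation. A match is a run of letters and was not tested as a binding site. Parts of 7 of these promoters are shown 5′ to 3′ along the strand of the gene, with the matched 8 bases in capitals. The first 3 belong to genes whose level in beta-like cells differed between libraries past the threshold given below. The others belong to genes that stayed within it, though some of them had smaller differences.
Nupr1: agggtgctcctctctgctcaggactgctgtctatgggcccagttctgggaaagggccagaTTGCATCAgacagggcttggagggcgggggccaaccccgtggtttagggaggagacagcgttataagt
Pck2: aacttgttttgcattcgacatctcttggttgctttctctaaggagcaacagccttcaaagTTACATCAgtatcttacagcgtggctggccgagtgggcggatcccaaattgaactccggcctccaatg
Slc7a11: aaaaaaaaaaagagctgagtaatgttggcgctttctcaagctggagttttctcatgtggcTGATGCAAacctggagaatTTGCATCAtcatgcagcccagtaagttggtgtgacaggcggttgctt
Chac1: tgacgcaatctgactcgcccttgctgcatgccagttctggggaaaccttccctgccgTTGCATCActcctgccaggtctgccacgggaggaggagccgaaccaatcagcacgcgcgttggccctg
Asns: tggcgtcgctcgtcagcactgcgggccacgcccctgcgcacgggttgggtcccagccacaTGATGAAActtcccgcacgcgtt
Aars: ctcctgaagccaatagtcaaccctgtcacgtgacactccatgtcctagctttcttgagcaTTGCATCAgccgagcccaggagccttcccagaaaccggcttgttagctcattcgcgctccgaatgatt
Tars: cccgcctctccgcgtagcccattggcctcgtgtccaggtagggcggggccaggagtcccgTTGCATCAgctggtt

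The Nupr1 stretch is chr7:126625513-126625640 on the minus strand, and the first base of its match lies at −110 from the RefSeq start. In the GENCODE M21 annotation of the same build this stretch falls inside the Nupr1 gene (126623249 to 126630861), because other transcripts of the gene start further upstream. The Pck2 stretch is chr14:55540103-55540230 on the plus strand, with its match at −103. The Slc7a11 stretch is chr3:50443614-50443739 on the minus strand and holds 2 matches that do not overlap, at −66 and at −47, on opposite strands. The Chac1 stretch is chr2:119350992-119351116 (plus), the Asns stretch chr6:7693210-7693292 (minus), the Aars stretch chr8:111033670-111033797 (plus) and the Tars stretch chr15:11399659-11399733 (minus). In Asns, which encodes asparagine synthetase and is the classical target of amino acid shortage, the match begins at −23. In GENCODE M21 this match lies inside the Asns gene (7675169 to 7693254), and the Aars stretch inside Aars (111033144 to 111057664). The Trib3 match begins at 15, after the start, and the windows of Ddit3, Sesn2 and Phgdh held no match of these letters.

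After filtering, 3430 S961, 3513 recovered and 4267 control cells were analysed, with medians of 9944, 8577 and 6501 unique molecular identifiers (UMIs, 1 per captured molecule) per cell. The libraries shared 51 barcode sequences. Cells formed 17 clusters, which were named from fixed markers only as "-like". Beta-like cells were 3 clusters of 1138 S961, 2140 recovered and 2910 control cells, with 20289037, 22383931 and 22483298 UMIs in all and all 9 beta markers detected in each library. In 1 of the 3, led by Hspa1b, none of the 9 was among the 20 leading genes and beta markers were not its best match. It was kept in the class because insulin made up 31.8%, 29.8% and 28.4% of its UMIs and all 9 markers were detected, and results without it are given below. The class differed in depth (median 17157, 10148 and 7499 UMIs) and in the median mitochondrial share of UMIs (5.03%, 7.19% and 6.92%), and insulin messages made up 32.7%, 31.1% and 30.7% of their UMIs. A pair of insulin-rich clusters stayed unnamed and out of the beta-like class: 1 led by Trh and processed pseudogenes (210, 275 and 217 cells) and one led by the noncoding transcript Gm26917 (461, 40 and 51 cells), which held 3 beta markers among its 20 leading genes but was shallow. All 9 markers were detected in these as well. Insulin made up 54.2%, 56.9% and 56.7% of UMIs in the Trh-led cluster and 40.3%, 33.8% and 35.1% in the Gm26917-led one. The reason for keeping the Hspa1b-led cluster therefore does not set it apart from them, and the make-up of the class rests on this choice. Levels are given as UMIs of a gene in each 1000000 UMIs of a class in a library (CPM). They are counts of 3′ ends and are not divided by gene length, so a level is compared between libraries rather than between genes unless stated. With 1 library per group no test was possible. A gene is called higher or lower where the pair of libraries gave it 50 UMIs or more and its log2 ratio was beyond 0.32 in either direction. Every 95% interval covers counting error only, not differences between mice.

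In beta-like cells the S961 library differed from control in a few members of the stress, synthesis and transport groups, and in none of the synthetases. All 37 genes were measured. Of these, 6 were higher in S961 (Nupr1, Slc7a3, Sesn2, Pck2, Trib3 and Phgdh), 2 were lower (Ddit3 and Slc7a11) and 29 were neither. Among all 11571 genes measured in this comparison, 16.9% were higher and 9.84% were lower, so members were called about as often as genes at large or less. The median log2 ratio of the 37 was 0.06, against 0.02 for all genes. Ratios ran from −0.58 for Ddit3 to 0.95 for Nupr1. Without the Hspa1b-led cells 7 were higher and 1 was lower, with Nupr1 at 1.10 and Ddit3, itself a leading gene of that cluster, at −0.016. The share over all genes without those cells is not given.

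**Figure D1:**
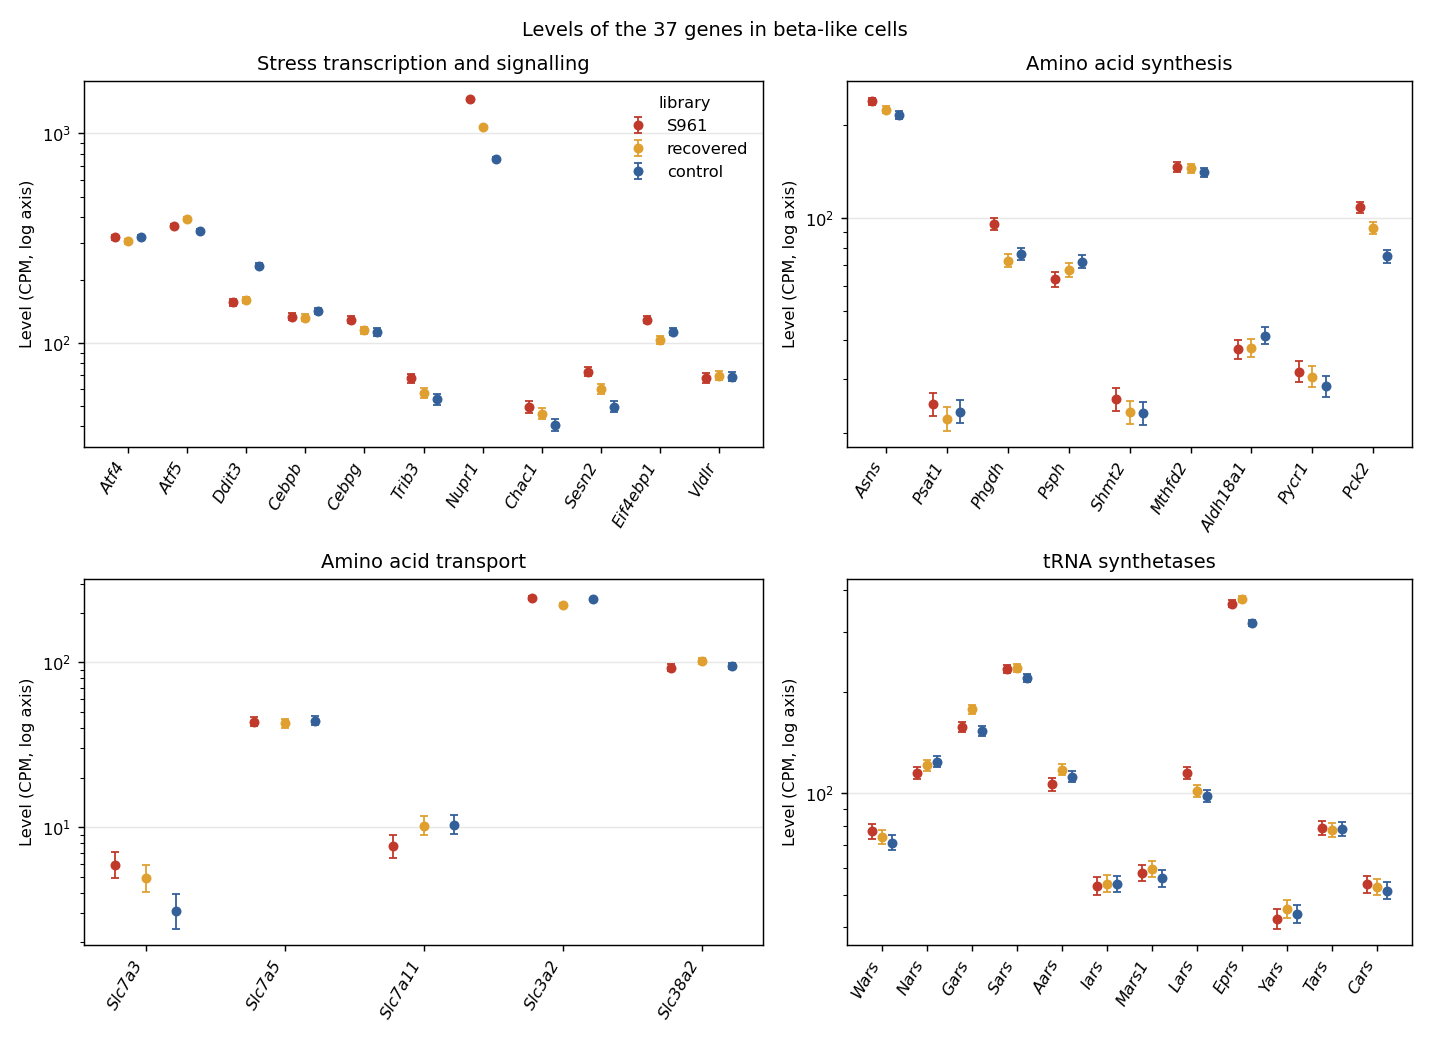
Level of each of the 37 genes in beta-like cells (CPM, log axis) in the S961 (red), recovered (orange) and control (blue) libraries, by group of genes; bars are exact Poisson 95% intervals of the count. Nupr1 stood at 1464, 1074 and 759 CPM and Ddit3 at 156, 160 and 233 CPM in that order of libraries, while the 3 points of most synthetases lie close together.

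Nupr1 carried most of the summed difference between the libraries. It encodes a small chromatin-associated stress protein that is also abundant in stressed exocrine pancreas. Its level was 1464 CPM in S961, 1074 CPM in recovered and 759 CPM in control beta-like cells. The S961 level was 1.93-fold the control level (log2 ratio 0.95, 95% interval 0.92 to 0.98), the recovered level was 0.733-fold the S961 level (−0.45, −0.47 to −0.42) and remained 1.41-fold the control level (0.50, 0.47 to 0.53). The recovered library thus lay between the others. Over cells thinned to 2000 UMIs each, a UMI of Nupr1 was found in 68.9% of S961 beta-like cells (95% interval 66.1 to 71.6), 62.4% of recovered cells (60.2 to 64.5) and 55.8% of control cells (54.0 to 57.7). In the other named classes together it was found in 21.5%, 25.5% and 18.3%, and in unthinned beta-like cells in 91.6%, 85.0% and 77.2%. Thinning left out 20, 140 and 161 beta-like cells that were shallower.

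Acinar-like cells, which make digestive enzymes, held far more Nupr1 than any other class: 35129 CPM in S961, 35068 CPM in recovered and 30469 CPM in control, in 107, 36 and 6 cells. Their RNA could therefore add to the beta-like level. The 8 acinar markers summed to 160 CPM in S961, 167 CPM in recovered and 54.8 CPM in control beta-like cells, with none of the 8 at 0. An estimate of RNA from other classes, which scales each class's profile by how much of its summed markers appear in beta-like cells, gave 44.4, 43.2 and 36.2 CPM of Nupr1, of which acinar-like cells accounted for 14.5, 17.1 and 5.05 CPM. These amounts were 3.03%, 4.02% and 4.76% of the measured levels. The same kind of estimate exceeded the measured Nupr1 in alpha-like and delta-like cells, and the control profile of acinar-like cells came from 6 cells. The part of such RNA in the difference between libraries was not tested.

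The remaining higher members of the stress group were Sesn2 and Trib3. Sesn2 encodes sestrin 2, which binds leucine and restrains the growth kinase mTORC1. It had 73.1 CPM in S961, 60.4 CPM in recovered and 49.7 CPM in control, 1.47-fold higher in S961 than in control (log2 0.56, 0.44 to 0.67). Trib3 encodes a pseudokinase that is induced by ATF4 with CHOP and feeds back on both. It had 67.8, 57.9 and 53.8 CPM in the same order, and its S961 level of 1.26-fold (0.33, 0.22 to 0.45) was just past the threshold. Both had their highest level in S961 and their lowest in control, and neither passed the threshold in recovered over S961 (−0.28 and −0.23) or over control (0.28 and 0.10).

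Ddit3, which encodes the pro-apoptotic factor CHOP, moved the opposite way. It had 156 CPM in S961, 160 CPM in recovered and 233 CPM in control. It was lower in S961 than in control (0.670-fold, log2 −0.58, −0.64 to −0.51) and lower in recovered than in control (0.686-fold, −0.54, −0.60 to −0.48). S961 and recovered did not differ past the threshold (0.03, −0.03 to 0.10). In GENCODE M21 the symbol has 2 entries on chromosome 10, and the longer one (127290774 to 127296288, plus strand) overlaps the end of the methionyl-tRNA synthetase gene on the minus strand (127296221 to 127311786). Whether reads were counted by strand is not given in the sources used here. The synthetase gene itself had 58.0, 59.7 and 55.8 CPM.

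The other 7 members of the stress group were neither higher nor lower in S961 over control. Atf4 itself had 319 CPM in S961, 305 CPM in recovered and 322 CPM in control, with a log2 ratio of −0.01 (−0.06 to 0.04) for S961 over control. Atf5, a related factor that supports beta cell survival, had 360, 389 and 342 CPM. The C/EBP partners Cebpb (133, 132 and 143 CPM) and Cebpg (129, 115 and 113 CPM) had ratios of −0.10 and 0.20. Eif4ebp1, the translational brake 4E-BP1, had 129, 103 and 113 CPM and lay just inside the threshold in recovered over S961 (0.800-fold, −0.32, −0.40 to −0.24). Chac1, which degrades glutathione, had 49.5, 45.9 and 40.8 CPM (0.28, 0.15 to 0.41), and Vldlr, a lipoprotein receptor, stood between 68.1 and 69.8 CPM in all 3 libraries. Summed, the stress group had 2950 CPM in S961 and 2238 CPM in control (0.40, 0.38 to 0.42). Without Nupr1 the sums were 1486 and 1479 CPM (0.01, −0.02 to 0.03), so the summed excess was that of Nupr1.

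In the synthesis group 2 of 9 members were higher in S961 and none was lower. Pck2 encodes the mitochondrial form of phosphoenolpyruvate carboxykinase, which supplies carbon for serine and glycerol. It had 108 CPM in S961, 92.5 CPM in recovered and 75.0 CPM in control, 1.44-fold higher in S961 than in control (0.53, 0.43 to 0.62). Phgdh, the entry enzyme of serine synthesis, had 95.7, 72.5 and 76.3 CPM in the same order. It was higher in S961 than in control (0.33, 0.23 to 0.42), on the edge of the threshold, and lower in recovered than in S961 (0.758-fold, −0.40, −0.50 to −0.30), with recovered and control at similar levels (−0.07, −0.17 to 0.02).

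The later enzymes of serine synthesis did not follow Phgdh. Psat1 had 24.8, 22.3 and 23.5 CPM, and Psph had 63.1, 67.7 and 71.9 CPM (S961 over control −0.19, −0.29 to −0.08). Asns had 238 CPM in S961, 224 CPM in recovered and 215 CPM in control (0.15, 0.09 to 0.21). The one-carbon enzymes Mthfd2 (146, 145 and 140 CPM) and Shmt2 (25.8, 23.5 and 23.2 CPM) and the proline synthesis enzymes Aldh18a1 (37.5, 37.8 and 41.5 CPM) and Pycr1 (31.6, 30.6 and 28.4 CPM) also stayed inside the threshold in all 3 comparisons. The 9 genes summed to 770 CPM in S961 and 695 CPM in control (0.15, 0.12 to 0.18).

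The transport group had 1 member higher and 1 lower of 5, and both were the scarcest genes of the set. Slc7a3, a cationic amino acid transporter, had 120 UMIs (5.91 CPM) in S961, 110 UMIs (4.91 CPM) in recovered and 70 UMIs (3.11 CPM) in control. It was higher in S961 than in control (0.93, 0.49 to 1.37) and higher in recovered than in control (0.66, 0.21 to 1.11), but a thinned cell held a UMI in under 1% of cases in every library. Slc7a11, the light chain of the cystine and glutamate exchanger, had 156 UMIs (7.69 CPM), 229 UMIs (10.2 CPM) and 233 UMIs (10.4 CPM) in the same order. It was lower in S961 than in control (−0.43, −0.73 to −0.13) and higher in recovered than in S961 (0.41, 0.11 to 0.71). Slc3a2, the heavy chain that pairs with Slc7a11 and with Slc7a5, had 246, 223 and 241 CPM, Slc7a5 had 43.7, 42.7 and 44.3 CPM, and the glutamine transporter Slc38a2 had 92.7, 101 and 95.3 CPM, all within the threshold.

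None of the 12 synthetases passed the threshold in any of the 3 comparisons of beta-like cells. These enzymes charge tRNAs with their amino acids and are classical ATF4 targets. In S961 over control the ratios ran from −0.11 for Nars to 0.23 for Lars, with 8 of 12 above 0 and a median of 0.05. Eprs, which charges glutamate and proline, had 365 CPM in S961, 377 CPM in recovered and 320 CPM in control, the largest ratio of recovered over control in the group (0.24, 0.19 to 0.28). Sars had 233, 235 and 219 CPM, Gars had 157, 177 and 153 CPM, Lars had 115, 101 and 98.0 CPM and Nars had 115, 121 and 124 CPM. Aars had 106, 117 and 112 CPM, Tars had 78.8, 77.9 and 78.3 CPM, Wars had 77.0, 74.3 and 71.3 CPM and Iars had 53.0, 53.9 and 53.8 CPM. Mars1, listed in the table by its synonym Mars, is given above with Ddit3, Cars had 53.6, 52.7 and 51.3 CPM and Yars had 42.4, 45.3 and 43.8 CPM. Their sum was 1453 CPM in S961 and 1380 CPM in control (0.07, 0.05 to 0.10).

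**Figure D2:**
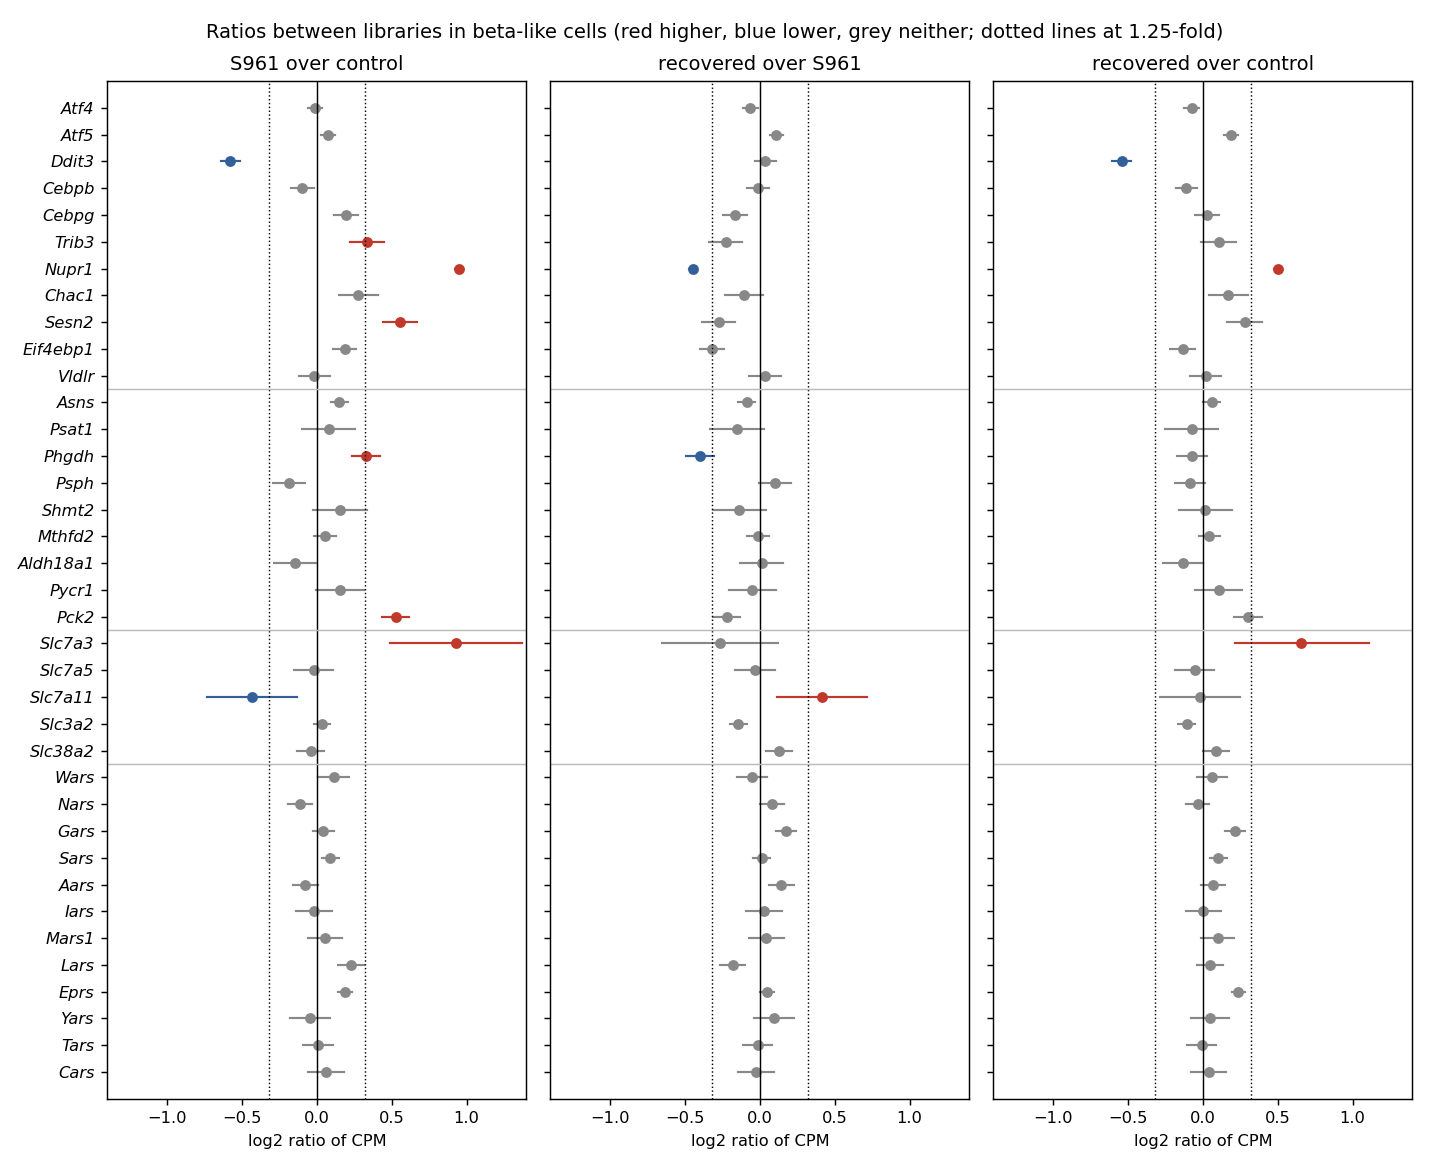
Log2 ratio of CPM of each of the 37 genes in beta-like cells for S961 over control, recovered over S961 and recovered over control, with exact 95% intervals and dotted lines at the threshold of 0.32 in either direction; red points are higher, blue points lower and grey points neither. In the left panel 6 genes are red and 2 blue, and none of the 12 synthetases at the bottom is coloured in any panel.

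Recovered cells were set against both other libraries, and the 3 comparisons share libraries, so they are not independent of each other. In recovered over S961, 1 member was higher (Slc7a11) and 2 were lower (Nupr1 and Phgdh) of 37, against 11.1% higher and 10.4% lower among all 11632 genes measured. The median ratio was −0.02, against 0.03 for all genes. In recovered over control, 2 were higher (Nupr1 and Slc7a3) and 1 was lower (Ddit3), against 11.5% and 4.43% of 11591 genes, with medians of 0.04 and 0.05. Without the Hspa1b-led cells 1 was higher and 4 were lower in recovered over S961, and 4 were higher and 0 lower in recovered over control. For these counts too, the share over all genes is not given. The 37 genes summed to 5570 CPM in S961, 5103 CPM in recovered and 4707 CPM in control, and to 4106, 4029 and 3947 CPM without Nupr1.

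The beta-like clusters differed in Ddit3 and in their share of each library. The cluster led by Hspa1b, Hspa1a, Mt2 and Ddit3, which are heat shock, metal-binding and stress genes, held 166 S961, 321 recovered and 699 control cells of the beta-like class. Because these cells were clustered on such genes, their levels are a description. The share of these cells and the level within them cannot be told apart as sources of the lower Ddit3. Ddit3 stood at 523 CPM there in S961, 568 CPM in recovered and 739 CPM in control, against 91.4, 96.0 and 92.4 CPM in the other beta-like cells of the same libraries. The cluster held 50.2%, 48.2% and 69.0% of all Ddit3 UMIs of beta-like cells, although it held 14.996%, 13.6% and 21.8% of all their UMIs.

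Within clusters the ratio of Ddit3 for S961 over control was −0.50 (−0.58 to −0.41) in the Hspa1b-led cells, −0.08 (−0.19 to 0.04) in the Pdyn-led cells and 0.23 (0.02 to 0.45) in the Mlxipl-led cells. For recovered over control the ratios were −0.38, 0.08 and 0.31. Outside the Hspa1b-led cells Ddit3 was within the threshold in both comparisons, and its direction turned in the Mlxipl-led cells and, for recovered over control, in the Pdyn-led cells as well. Ddit3 is a leading gene of the Hspa1b-led cluster, so leaving that cluster out takes away cells high in Ddit3. The ratios outside it are therefore a description too. Islets were cultured overnight in all groups, and the part that culture or dissociation played in this cluster was not tested.

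Other members were also higher in the Hspa1b-led cells. Of the 37, 10 were higher and 4 lower there in S961, 8 and 7 in recovered, and 9 and 5 in control, against 17.8% and 29.8%, 16.5% and 29.3%, and 18.1% and 25.1% of all genes measured. In each library Ddit3, Trib3, Eif4ebp1, Slc3a2, Nupr1, Cebpg and Cebpb were higher past the same threshold there than in the other beta-like cells of that library. Trib3 had 119 against 58.7 CPM in S961, 105 against 50.4 CPM in recovered and 102 against 40.5 CPM in control. Eif4ebp1 had 205 against 116 CPM, 175 against 92.0 CPM and 191 against 91.8 CPM, and Slc3a2 had 405 against 218 CPM, 330 against 206 CPM and 370 against 205 CPM in the same order. No member was lower past it in all 3 libraries. Wars had 66.1 against 79.0 CPM in S961, 58.0 against 76.9 CPM in recovered and 55.8 against 75.6 CPM in control, and Pycr1 had 27.9 against 32.3 CPM, 23.4 against 31.7 CPM and 21.3 against 30.4 CPM. Asns gave log2 ratios of 0.21, 0.12 and 0.28 and Chac1 gave −0.15, −0.36 and −0.26 in the same order.

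**Figure D3:**
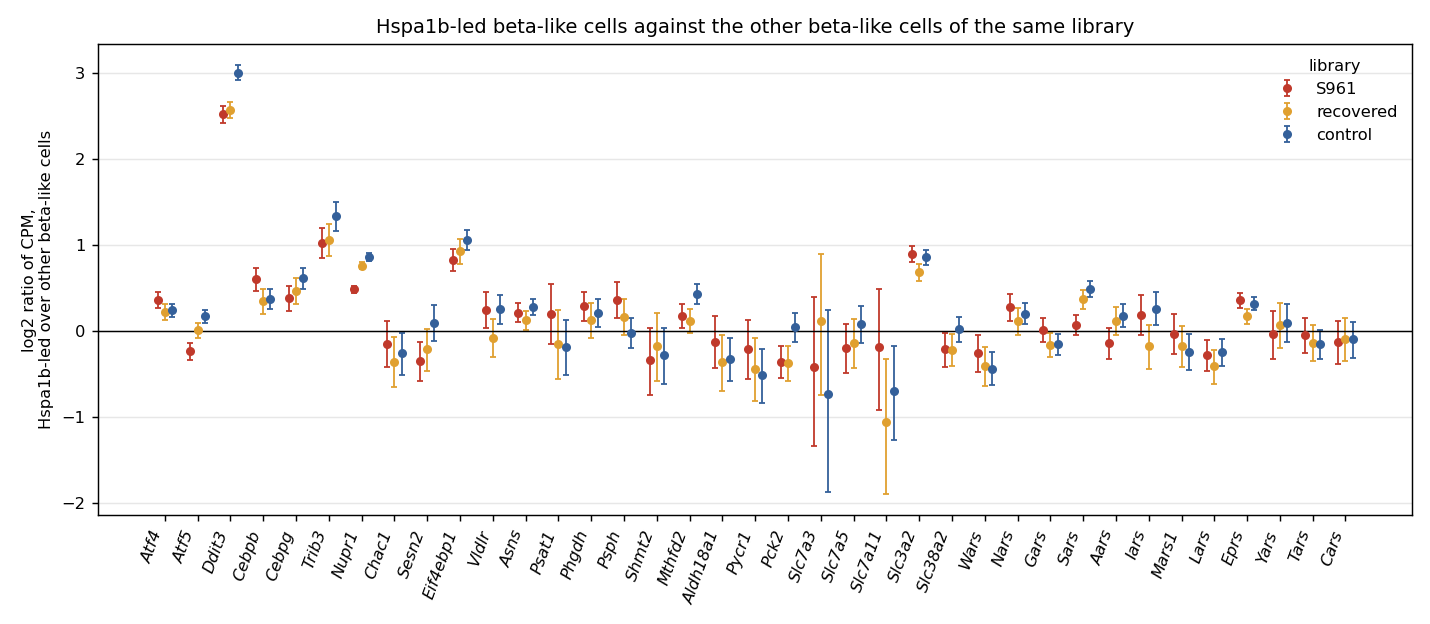
Log2 ratio of CPM in the Hspa1b-led beta-like cells over the other beta-like cells of the same library, for the 37 genes, in S961 (red), recovered (orange) and control (blue), with exact 95% intervals. Ddit3 lies at 2.52, 2.57 and 3.00 and Trib3 at 1.02, 1.06 and 1.33, while most synthetases lie near 0; the cells were clustered with these genes among the others, so the plot is a description.

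Unlike Ddit3, Nupr1 was higher in S961 than in control within each beta-like cluster. Its ratio was 1.05 (1.01 to 1.08) in the Pdyn-led cells, with 1629 CPM in S961, 1325 CPM in recovered and 789 CPM in control. It was 1.44 (1.36 to 1.52) in the Mlxipl-led cells (855, 578 and 315 CPM) and 0.73 (0.68 to 0.78) in the Hspa1b-led cells (1934, 1661 and 1167 CPM). In all 3 clusters the recovered level lay between the others. The unnamed shallow cluster led by Gm26917 had 1808, 1170 and 942 CPM (0.94, 0.75 to 1.14). In the unnamed Trh-led cluster Nupr1 was much scarcer and alike between libraries, at 98.9, 101 and 105 CPM (−0.08, −0.37 to 0.21).

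Sesn2, Trib3 and Pck2 were higher in S961 in both large clusters and not in the Hspa1b-led one. In the Mlxipl-led cells, whose leading genes include Slc2a2, Ucn3 and Mafa of the mature beta cell, Sesn2 had 87.4 CPM in S961, 62.9 CPM in recovered and 48.4 CPM in control (0.85, 0.63 to 1.08). Pck2 there had 121, 90.7 and 74.3 CPM (0.70, 0.52 to 0.88) and Trib3 had 41.9, 31.9 and 24.3 CPM (0.79, 0.47 to 1.11). In the Pdyn-led cells the ratios were 0.51 for Sesn2, 0.53 for Pck2 and 0.49 for Trib3. In the Hspa1b-led cells they were 0.18, 0.18 and 0.23, each within the threshold. The difference between clusters was not tested. Phgdh gave 0.36, 0.26 and 0.40 in the Pdyn-led, Mlxipl-led and Hspa1b-led cells.

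**Figure D4:**
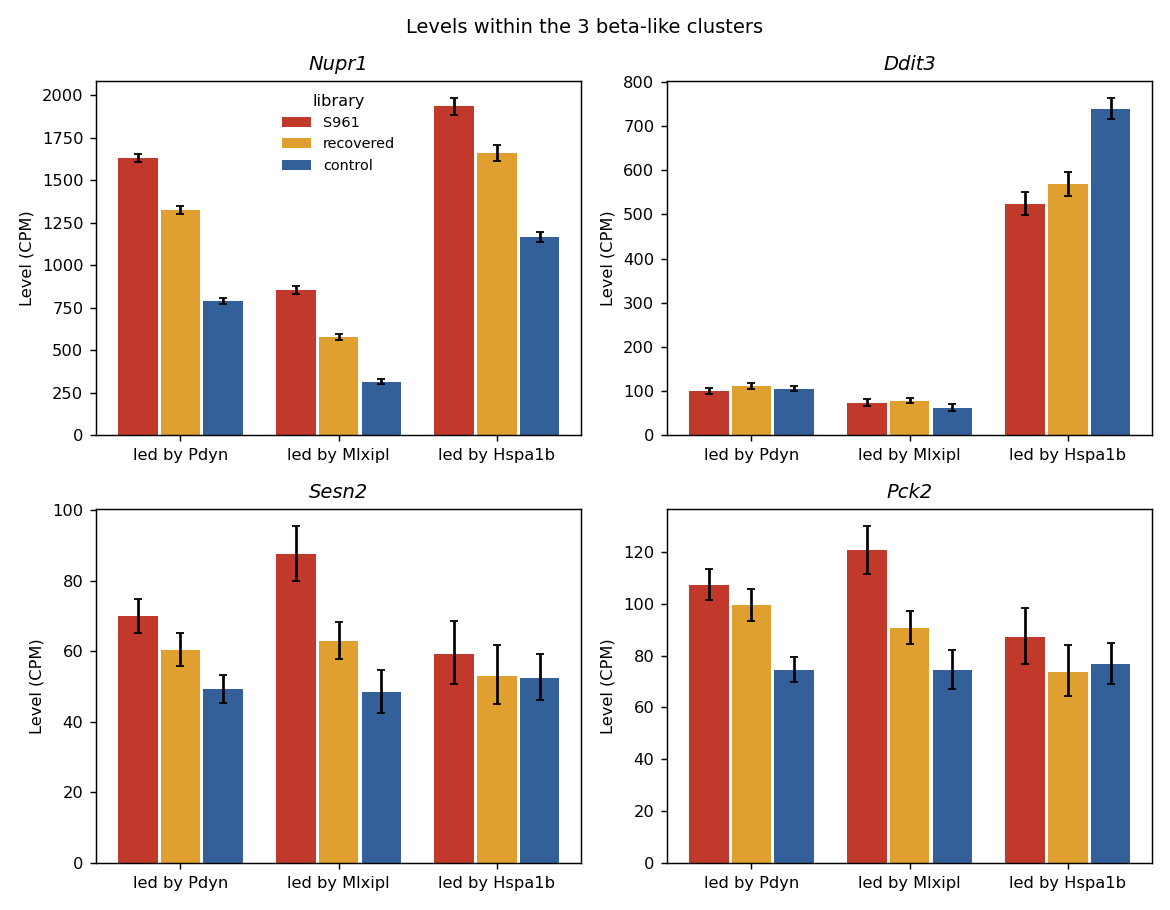
Level (CPM) of Nupr1, Ddit3, Sesn2 and Pck2 in the 3 beta-like clusters, named by their leading gene, in S961 (red), recovered (orange) and control (blue); bars start at 0 and carry exact Poisson 95% intervals. Nupr1 is in the order S961, recovered, control in every cluster, and Ddit3 is high in the Hspa1b-led cells, at 523, 568 and 739 CPM.

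Within single beta-like cells, members were compared between cells with and without a UMI of Ddit3 after thinning to 2000 UMIs, which gave 204 and 914 cells in S961, 435 and 1565 in recovered and 755 and 1994 in control. Cells of a library share their source, so the shares describe that library. Trib3 was found in 13.7% of S961 cells with Ddit3 and 9.63% without, in 17.2% and 8.31% of recovered cells, and in 14.2% and 7.17% of control cells. Slc3a2 was found in 45.1% and 32.4% in S961, 41.6% and 32.4% in recovered, and 41.2% and 32.9% in control. Of 36 members, the 95% intervals of the pair of shares were apart for 4 in S961, 6 in recovered and 13 in control. Each time the higher share was in cells with Ddit3. Eif4ebp1 and Slc3a2 were among these members in every library, Nupr1, Trib3, Atf4 and Sars in recovered and control. No share over all genes is given beside these counts, so they do not set the members apart from genes at large. Intervals also narrow with more cells, so the counts are not compared between libraries. Cells with Ddit3 lay in the Hspa1b-led cluster in 35.3%, 39.1% and 57.9% of cases, against 9.85%, 8.95% and 11.3% of cells without it. Chac1 was found in 11.8% and 8.75%, 9.89% and 7.92%, and 7.28% and 7.57%, with overlapping intervals in every library.

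The set was not specific to beta-like cells, and its members peaked in different classes. Stellate-like or fibroblast-like cells had the highest Cebpb of the large classes, with 1039 CPM in S961, 826 CPM in recovered and 1089 CPM in control. Endothelial-like cells had the highest Atf4 of the large classes (690, 640 and 676 CPM) and the highest Slc38a2 (516, 477 and 450 CPM). Atf5 was high in beta-like cells and in the stellate-like or fibroblast-like class (371, 313 and 385 CPM) and low in alpha-like cells (46.3, 60.8 and 80.8 CPM). Alpha-like cells, which make glucagon, also had little Phgdh (4.90, 6.86 and 11.5 CPM) and Trib3 (5.30, 1.96 and 11.5 CPM), and Asns was at 77.7, 76.4 and 96.1 CPM there, against 220, 228 and 239 CPM in the somatostatin-producing delta-like cells. The synthetase Eprs had 264, 230 and 251 CPM in alpha-like and 294, 285 and 263 CPM in delta-like cells, below its level in beta-like cells in each library.

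**Figure D5:**
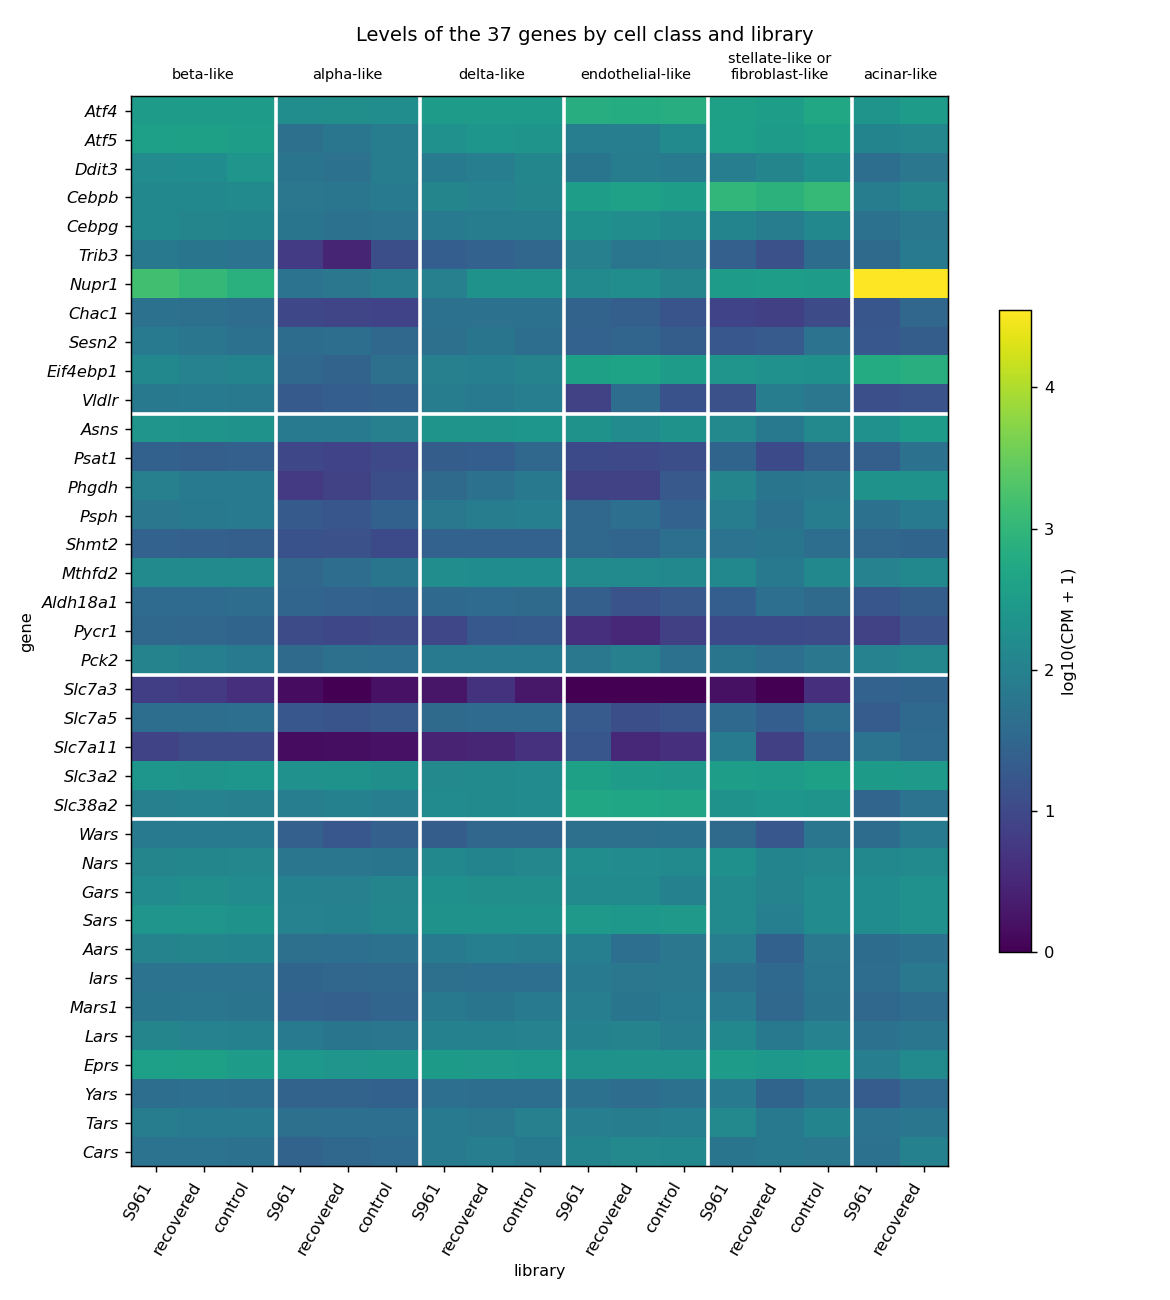
Level of the 37 genes, as log10(CPM + 1), in 6 classes of cells (columns, by library) with groups of genes set apart by white lines; acinar-like cells of the control library, 6 in number, are not drawn. Nupr1 in acinar-like cells is the brightest field, Cebpb is brightest in the stellate-like or fibroblast-like class, and Atf4 and Slc38a2 in endothelial-like cells.

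In alpha-like cells, 33 members were measured in S961 over control: 1 was higher (Shmt2, 63 and 15 UMIs, 0.42, −0.41 to 1.34) and 8 were lower, against 19.6% higher and 8.26% lower among all genes. After subtraction of the RNA estimated to come from other classes, 9 were higher and 3 lower of 30 measured. The share over all genes after subtraction is not given, so this change is not set against genes at large. Before subtraction the median ratio was −0.10, against 0.06 for all genes. The lower members were Mthfd2 (31.2 and 58.3 CPM, −0.90), Atf5 (−0.80), Nupr1 (−0.64), Ddit3 (54.9 and 82.0 CPM, −0.58), Eif4ebp1 (−0.56), Cars (−0.47), Psph (−0.43) and Vldlr (−0.39). Without doublet removal the ratio of Nupr1 was 0.14 instead. Insulin messages, which alpha cells should lack, made up 0.797% of UMIs of alpha-like cells in S961, 1.99% in recovered and 3.55% in control. The estimate of RNA from other classes exceeded the measured Nupr1 of alpha-like cells (114 against 53.0 CPM in S961, 140 against 61.3 CPM in recovered and 132 against 82.7 CPM in control), so it was too high for this gene. For Mthfd2 it was 35.7% of the S961 level and 41.5% of the control level, and for Ddit3 12.8% and 38.5%. The part of such RNA in each of these differences was not tested.

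In delta-like cells, 35 members were measured in S961 over control, and none was higher and 8 were lower, against 24.3% higher and 8.41% lower among all genes. After subtraction of the RNA estimated to come from other classes, 2 were higher and 4 lower of 31 measured. Thinning gave 4 higher and 7 lower of 29. The shares over all genes under these 2 settings are not given. Without either step the median ratio was −0.07, against 0.10 for all genes. Nupr1 had 95.7 CPM in S961, 217 CPM in recovered and 213 CPM in control (S961 over control −1.16, −1.37 to −0.95), so its order was not that of beta-like cells. Phgdh had 35.8, 49.3 and 68.6 CPM (−0.94, −1.30 to −0.58) and Ddit3 had 77.9, 85.3 and 122 CPM (−0.65, −0.90 to −0.39). The others were Pycr1, Psat1, Wars, Trib3 and Psph, between −1.14 and −0.46. In recovered over S961, 5 members were higher (Nupr1, Pycr1, Wars, Phgdh and Psph) and none was lower, against 8.91% and 20.3% of all genes.

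Insulin messages made up 0.990% of UMIs of delta-like cells in S961, 8.13% in recovered and 8.04% in control. They were thus lowest in S961, as were the lower members above. Where this insulin RNA came from was not tested. The estimate of RNA from other classes exceeded the measured Nupr1 (337 against 95.7 CPM in S961, 484 against 217 CPM in recovered and 352 against 213 CPM in control). It was thus too high for this gene. Its rates for beta-like RNA were 15.2%, 37.4% and 37.9% in the same order. The estimate counts every marker message as coming from the other class, so a marker made by delta-like cells themselves would raise it. That was not tested, and the values after subtraction carry this limit. For Phgdh it came to 78.3%, 78.9% and 61.0% of the level, and for Ddit3 to 33.0%, 73.1% and 74.4%. After subtraction of the estimate the ratio of Ddit3 for S961 over control was 0.26 and that of Wars 2.02. Wars had 73 UMIs in S961 and 61 in control before subtraction, and the levels left after it are not given. The part of such RNA in the other lower members was not tested.

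In endothelial-like cells, which line vessels, 29 members were measured in S961 over control, and 9 were higher and 3 lower, against 25.7% and 11.6% of all genes, with medians of 0.19 and 0.10. Trib3 had 94.4 CPM in S961, 58.8 CPM in recovered and 62.2 CPM in control (0.60, 0.08 to 1.15). Slc3a2 had 380 CPM in S961 and 277 CPM in control (0.45, 0.21 to 0.71), and Gars, the glycyl-tRNA synthetase, had 150 and 100.5 CPM (0.57, 0.17 to 1.00). Atf5 was lower, at 87.3 CPM in S961 and 147 CPM in control (−0.75, −1.14 to −0.35). For the stellate-like or fibroblast-like class 7 of 31 were higher and 4 lower, against 41.7% and 14.2% of all genes. Slc7a11 had 119 UMIs (71.5 CPM) in S961 and 8 UMIs (26.3 CPM) in control (1.44, 0.42 to 2.69), and Ddit3 was lower (86.5 and 194 CPM, −1.17, −1.61 to −0.70). The log2 ratio of Ddit3 for S961 over control was past −0.32 in all 5 classes compared, beta-like cells included. In endothelial-like cells its interval included 0 (−0.42, −0.94 to 0.12). In beta-like cells the ratio was −0.016 without the Hspa1b-led cells, a cluster of which Ddit3 is a leading gene. In delta-like cells it was 0.26 after subtraction of the estimated RNA of other classes. The estimates above assign part of the RNA of alpha-like and delta-like cells to other classes, which was not tested. The 5 classes are therefore not taken as separate observations.

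The recovered library was set against the others in these smaller classes as well. In alpha-like cells recovered over S961 gave 3 members higher and 1 lower of 33, against 11.3% and 13.9% of all genes, and recovered over control gave 1 higher and 10 lower of 29, against 16.5% and 10% of all genes. Nupr1 (−0.43, −0.80 to −0.07) and Ddit3 (−0.67, −1.06 to −0.29) were among the 10. In delta-like cells recovered over control gave 2 higher and 4 lower of 35, against 14.1% and 10.2%, with Ddit3 among the lower (−0.52, −0.81 to −0.23). In endothelial-like cells recovered over S961 gave 3 higher and 4 lower of 29, against 16.2% and 18.6%, and recovered over control gave 6 higher and 5 lower of 25, against 23.1% and 11.9%. For the stellate-like or fibroblast-like class, of which the recovered library held 51, recovered over S961 gave 2 higher and 20 lower of 30, against 18.4% and 37% of all genes, and recovered over control gave 0 higher and 12 lower of 17, against 32.6% and 19.2%. Aars, with 8 UMIs (25.3 CPM) in recovered and 142 UMIs (85.3 CPM) in S961, was among the lower genes (−1.75, −2.99 to −0.73).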

How the data were processed

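Single-cell 3′ RNA libraries of islets were made with 10x chemistry, 1 per group, and the authors deposited raw UMI counts per gene and barcode. The counts come from Cell Ranger with the mm10 build, per the submitters' processing notes; its version and strand setting are not given in the sources used here. Each cell's library was read from its barcode suffix. The libraries held 5905 (S961), 7805 (recovered) and 10880 (control) barcodes with 47651767, 40102058 and 38265969 UMIs. The filter kept barcodes with 500 genes or more and a mitochondrial share of up to 20% (3507, 3537 and 4270). Scrublet in scanpy 1.11.5, with an expected rate of 0.06, removed 77, 24 and 3 doublets, so doublets were hardly removed from the control library.

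Cells were clustered on 2000 variable genes, 30 components and 15 neighbours (leidenalg 0.10.2, resolution 0.5) and named from fixed markers; the names are rebuilt, not the authors'. UMIs were summed per class and library. Ratios carry exact conditional binomial 95% intervals, levels exact Poisson and shares exact Clopper-Pearson intervals (scipy 1.17.1), which cover counting error only. Thinned shares used 2000 UMIs per cell. The calculation was tested on simulated data. These were independent Poisson counts without differences between mice or cells or RNA of other classes, so they check the arithmetic only. TMM factors (edgeR 4.0.16) were an alternative scaling.

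All 37 genes are reported. Of related genes, the 3 higher and 3 lower members with the interval bound farthest past 0 are named. The members and lists were chosen with earlier results of these data known.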

Additional observations from a re-analysis of the deposited data

Results flagged for a closer look

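Nupr1 and Phgdh moved one way in beta-like cells and the other way in another endocrine class under the same comparison. For S961 over control the log2 ratio of Nupr1 was 0.95 in beta-like, −0.64 in alpha-like and −1.16 in delta-like cells, and that of Phgdh was 0.33 in beta-like and −0.94 in delta-like cells. For recovered over S961 Nupr1 was at −0.45 in beta-like and 1.18 in delta-like cells, and Phgdh at −0.40 in beta-like and 0.46 in delta-like cells. For recovered over control Nupr1 was at 0.50 in beta-like and −0.43 in alpha-like cells. With 1 library per group the difference between classes was not tested. The estimate of RNA from other classes exceeded the measured Nupr1 in alpha-like and delta-like cells in every library, and was 3.03%, 4.02% and 4.76% of it in S961, recovered and control beta-like cells. For Phgdh of delta-like cells the estimate came to most of the level in every library, as given above. Without doublet removal the alpha-like ratio of Nupr1 for S961 over control was 0.14. The beta-like ratio of Phgdh for S961 over control passed the threshold in 9 of 19 alternatives.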

How the results depend on the processing

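Over 19 alternatives in beta-like cells for S961 over control, Nupr1 (0.66 to 1.44) and Slc7a3 (0.63 to 1.60) stayed past the threshold in all 19, Sesn2 and Pck2 in 18, Ddit3 and Slc7a11 in 16, Trib3 in 10 and Phgdh in 9. The within-cluster settings and those that add an unnamed cluster were chosen after seeing the data. Directions turned for Ddit3 in S961 over control within Mlxipl-led cells (0.23), for Slc7a11 in recovered over S961 within Hspa1b-led cells (−0.39), and for Ddit3 in recovered over control without the Hspa1b-led cells (0.054) and within Pdyn-led (0.082) and Mlxipl-led cells (0.31). They also turned in alpha-like cells for Nupr1 without doublet removal (0.14) and in delta-like cells for Trib3 (0.020) and Slc7a11 (1.61) after thinning and for Ddit3 (0.26) and Wars (2.02) after subtracting the estimated RNA of other classes. Causes were not tested. The counts of members that follow stand without shares over all genes, so they describe the settings only. A 1.5-fold threshold left 2 members higher and 0 lower in beta-like S961 over control, 0 and 0 in recovered over S961, and 1 and 0 in recovered over control. The lower count in S961 over control was 1 at 4 to 7% mitochondrial UMIs, without Hspa1b-led cells and within Pdyn-led cells. In recovered over S961 the higher and lower counts were 3 and 4 after thinning, 2 and 1 at 4 to 7% mitochondrial UMIs, 0 and 0 within Pdyn-led and 2 and 5 within Mlxipl-led cells, with 0 lower under the stricter cell filter and 4 lower without Hspa1b-led cells. In recovered over control they were 4 and 0 without Hspa1b-led cells, 6 and 0 within Pdyn-led, 4 and 0 within Mlxipl-led and 1 and 3 within Hspa1b-led cells, with 4 higher by the mean of cells, 1 higher at 200 UMIs and 2 lower after thinning. In alpha-like S961 over control the higher count was 3 by the mean of cells, after thinning and without the cells richest in other markers, 2 without doublet removal, and the counts were 0 and 5 at 200 UMIs, 0 and 3 at 1.5-fold and 9 and 3 after subtraction. In delta-like cells the higher count was 1 by the mean of cells and at 4 to 7% mitochondrial UMIs and 4 after thinning, and the counts were 2 and 4 after subtraction, with 4 lower at 200 UMIs and 5 lower at 1.5-fold. No paired analysis was possible because each group had 1 library and no replicate numbers.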

Other observations

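Related genes of the stress response were read in beta-like cells for S961 over control. Of 19 measured further genes linked to ATF4, 8 were higher and none lower, against 16.9% and 9.84% of all genes measured. Their median log2 ratio was 0.15, against 0.02 for all genes. This list and the related lists below were chosen with earlier results of these data known, so their counts are a description and not a test. Gdf15, a secreted stress hormone, had 30.9 CPM in S961, 13.2 CPM in recovered and 13.7 CPM in control (1.18, 0.98 to 1.38). Adm2, a peptide of the adrenomedullin family, had 34.0, 26.3 and 18.1 CPM (0.91, 0.73 to 1.09), and Fgf21, a metabolic hormone, had 44, 21 and 24 UMIs (1.02, 0.27 to 1.80). Gdf15 was thus near its control level in the recovered library.

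Of 8 genes of the eIF2 kinases and the eIF2 phosphatase, 3 were higher and 1 lower, beside the same shares over all genes. Ppp1r15a, which encodes GADD34 and guides the phosphatase to eIF2, had 71.5 CPM in S961 and 44.3 CPM in control (0.69, 0.57 to 0.81). The kinases Eif2ak2 (20.0 and 13.5 CPM, 0.56) and Eif2ak1 (13.9 and 10.7 CPM, 0.38) were higher, and Eif2s1, the phosphorylated subunit itself, was lower (43.6 and 54.5 CPM, −0.32). Of 11 other cytosolic synthetases 1 was lower (Hars, 32.8 and 42.2 CPM, −0.36), and of 16 mitochondrial ones 1 was higher (Vars2, 0.38) and 4 were lower (Aars2, Mars2, Ears2 and Yars2, between −0.55 and −0.36).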
